A study of Mus musculus with 8 samples.

Results

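The genes described here work in the endoplasmic reticulum (ER) on the folding, secretion and disposal of newly made proteins, together with the sensors and transcription factors of the unfolded protein response (UPR). The group holds 45 genes out of 36811 gene models in the deposited table. These genes were chosen by name for this function, though with earlier results of these data known. They were matched by Ensembl ID and placed in 6 roles: 6 UPR sensors and transcription factors, 12 chaperones and co-chaperones, 6 protein disulfide isomerases and partners, 10 parts of the translocon, the translocon-associated protein (TRAP) complex and signal peptidase, 5 parts of the oligosaccharyltransferase, and 6 genes of ER-associated degradation. All 45 were found, and 44 passed the filter on low values.

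Splenic regulatory T (Treg) cells were profiled by RNA sequencing. Every library came from C57BL/6 mice of 12 to 13 weeks with the genotype Foxp3EGFP-DTR Bach2tdRFP/+. The Foxp3 allele gives green fluorescence in Treg cells and also carries the diphtheria toxin receptor, and the Bach2 allele reports its own expression by red fluorescence. CD4+ T cells were enriched and Foxp3-GFP positive cells sorted into Bach2-RFP HI and Bach2-RFP LO, with 4 libraries each: F1 and F2 from females, M1 and M2 from males. No group without the reporter alleles was part of the comparison, and the reporter allele was heterozygous in HI and LO alike. Whether each library was made from another animal is not stated in the labels, and p-values therefore reflect how far these 8 libraries differ among themselves, which may be technical.

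The ER receives proteins that are to be secreted or placed in membranes. The Sec61 channel threads them in, signal peptidase removes their signal peptide, the oligosaccharyltransferase attaches glycans, chaperones and disulfide isomerases fold them, and those that fail are drawn back out and degraded. Unfolded protein in the ER activates the sensors IRE1 (gene Ern1), PERK (Eif2ak3) and ATF6, which raise the transcription of many of these same genes through XBP1, ATF4 and cleaved ATF6. In lymphocytes the system is best known from plasma cells, whose antibody output needs XBP1 and an enlarged ER.

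The short DNA elements through which the UPR acts are printed here because they are the known route by which ATF6 and XBP1 raise these genes, so the genes that carry them can be read together across HI and LO cells. Promoter windows of 300 bases, from 250 before to 50 after an annotated start, were available from RefSeq (GRCm38.p6) for 36 of the 45 genes. The windows of Atf6, Hyou1, Manf, Mzb1, Sec61a1, Sec11c, Ssr2, Ostc and Derl1 were not used here. Each was searched on both strands for the ER stress response element, ERSE (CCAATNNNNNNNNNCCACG), for ERSE-II (ATTGGNCCACG), for the core of the UPR element, UPRE (TGACGTGG), and for the C/EBP-ATF response element (TGATGNAA) read by ATF4 and CHOP. ERSE matches stood in 7 of the 36 genes, 19.4%, against 0.137% of all 27025 genes with a window. They are written in the direction in which the element reads, with its fixed letters in capitals and 10 bases of flank on each side.
Hspa5, chr2:34772015-34772053: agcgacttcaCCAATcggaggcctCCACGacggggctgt
Hsp90b1, chr10:86705628-86705666: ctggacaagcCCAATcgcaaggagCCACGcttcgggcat
Hsp90b1, chr10:86705523-86705561: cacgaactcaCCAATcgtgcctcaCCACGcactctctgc
Calr, chr8:84847065-84847103: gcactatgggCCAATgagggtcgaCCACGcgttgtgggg
Canx, chr11:50325790-50325828: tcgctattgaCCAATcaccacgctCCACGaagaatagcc
Dnajc3, chr14:118937817-118937855: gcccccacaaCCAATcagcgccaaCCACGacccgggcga
Creld2, chr15:88819510-88819548: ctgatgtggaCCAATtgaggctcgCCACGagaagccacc
Pdia6, chr12:17266481-17266519: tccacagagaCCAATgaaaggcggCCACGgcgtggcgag

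The elements of Hspa5, Canx, Dnajc3, Pdia6 and the first of Hsp90b1 read along the gene's own strand. Those of Calr, Creld2 and the second of Hsp90b1 read on the opposite strand. Hspa5, Dnajc3, Creld2 and Pdia6 lie on the plus strand of the genome, and Hsp90b1, Calr and Canx on the minus strand. The element began between 65 bases (Hspa5) and 212 bases (Hsp90b1) before the annotated start. ERSE-II matches stood in Dnajb11, Krtcap2 and Herpud1, 8.33% of the 36 against 0.0444% of all genes, each along the gene's strand, which is the plus strand for all 3. Herpud1 carried it 52 bases before the start, while the match lay 7 bases after the start in Dnajb11 and 17 in Krtcap2.
Dnajb11, chr16:22857842-22857872: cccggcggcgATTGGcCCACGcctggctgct
Krtcap2, chr3:89246480-89246510: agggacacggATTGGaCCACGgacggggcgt
Herpud1, chr8:94386367-94386397: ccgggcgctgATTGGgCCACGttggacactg

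UPRE core matches were found in Txndc5 and Txndc11, 5.56% of the 36 against 0.714% of all genes. Txndc5, the disulfide isomerase called higher in LO in the main analysis, carried it 138 bases before 1 of its annotated starts. Txndc11 was not called (log2 difference 0.004, limma adjusted p = 0.996). Both genes lie on the minus strand and the element reads along them.
Txndc5, chr13:38528035-38528062: gcctcgccgcTGACGTGGcgctagccgc
Txndc11, chr16:11134617-11134644: gaagtgtggcTGACGTGGagagtccggg

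The C/EBP-ATF element matched in Txndc5 and Herpud1, 5.56% against 4.51% of all genes. These matches describe letters in a window and do not show that a factor binds there.

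Values are FPKM, fragment counts scaled to transcript length and library size, as deposited, so levels can be compared between genes. Differences are LO minus HI on the log2(FPKM + 1) scale, tested with limma over 11260 genes and adjusted by Benjamini-Hochberg, and a gene is called at an adjusted p below 0.05. Folds are ratios of mean FPKM. Bach2 itself was at 15.6 ± 5.56 FPKM in HI libraries and 0.691 ± 0.187 in LO libraries (SD, n = 4, as for every mean given here), in the direction of the labels, and Foxp3 was at 14.2 ± 0.783 and 14.7 ± 3.97. The table holds no read totals. The steps between low values put HI M1 at 0.638 and LO M2 at 5.26 of the depth of HI F1, with the other libraries between 0.819 and 1.27.

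Differences between HI and LO cells were small in most genes of the secretory machinery. Only Sec11c and Txndc5 were called, both higher in LO, and none was called lower. That is 2 of 44 tested, 4.55%, where 4.65% of all tested genes were called higher in LO and 3.64% lower, so the share called lay near that of all genes. The 4 LO libraries lay above the 4 HI libraries in Sec11c, Txndc5, Atf6 and Sdf2l1 and in no gene below them. Over all tested genes 7.9% had LO above HI without overlap and 7.18% had LO below. The median difference of the 44 genes was 0.08, with 31 above 0 and 13 below, beside -0.03 for all tested genes, of which 48.0% were above 0. Without LO M2 the median was 0.02 and 24 of the 44 were above 0. In absolute size the median difference was 0.18, against 0.36 for all genes, and 1 gene in this group (Sec11c) differed by at least 1, against 14.4% of all genes. The median SE was also smaller, 0.21 in the group and 0.33 over all genes, and genes of like level were not compared. The 95% interval of the difference lay within -1 and 1, a doubling either way, for 34 of the 44 (77.3%). Over all tested genes the share was 39.7%, and the width of an interval follows the SE. Without LO F2 the number of genes called higher among all genes dropped from 524 to 286, and without LO F1 to 329.

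**Figure D1:**
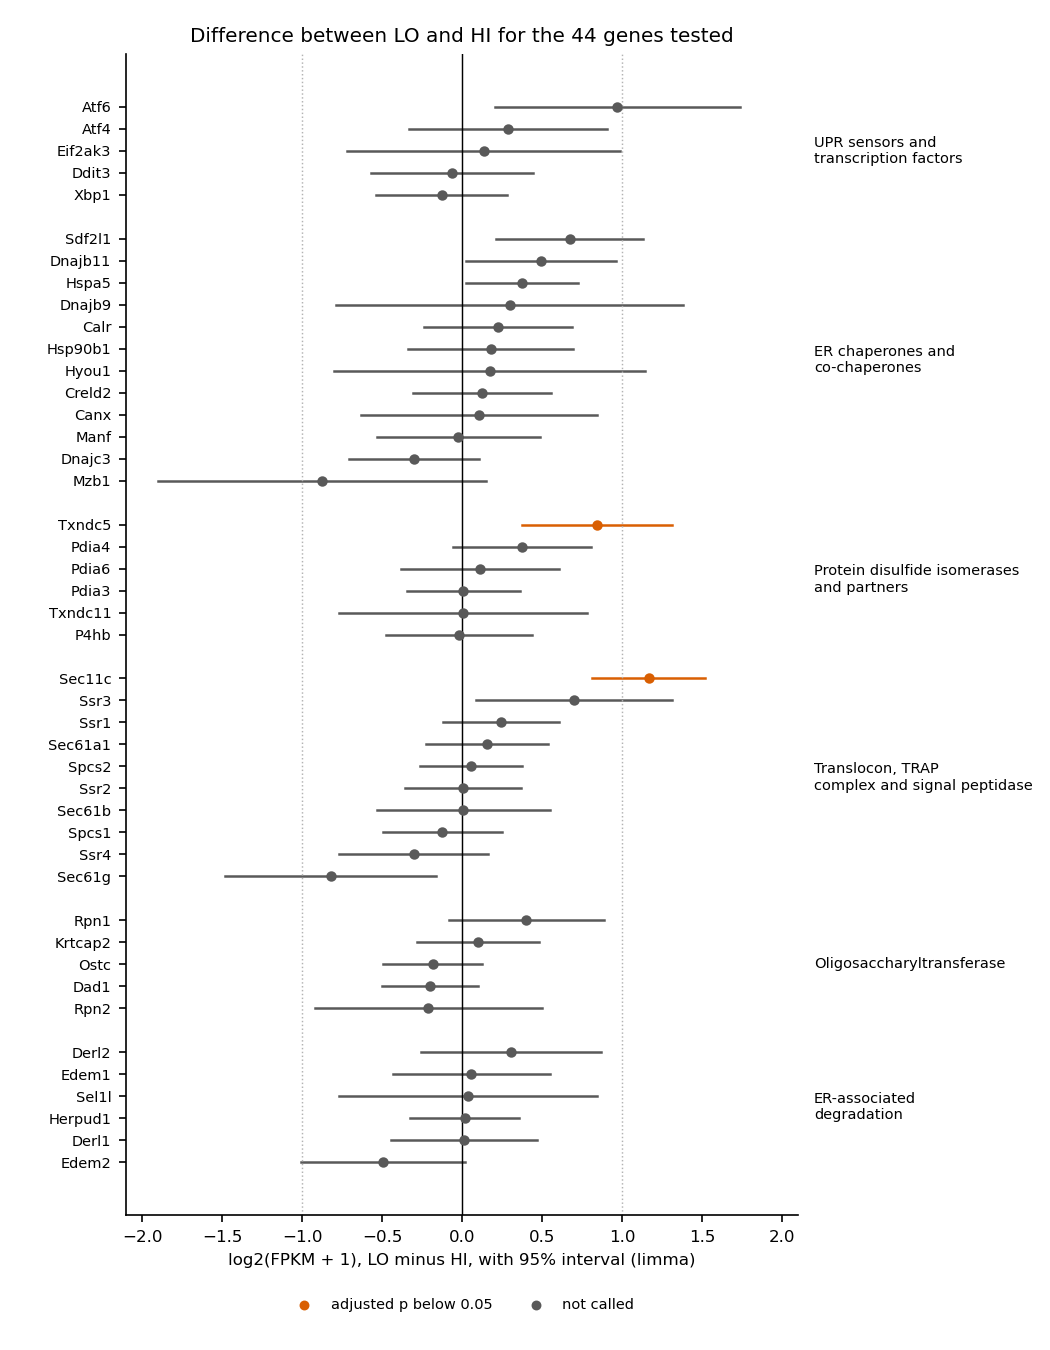
The horizontal axis gives the log2(FPKM + 1) difference, LO minus HI, with its 95% interval from limma for the 44 genes tested, grouped by role, and dotted lines mark -1 and 1. Sec11c and Txndc5, in orange, are the genes with an adjusted p below 0.05, and 36 of the 44 intervals include 0.

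Sec11c (ENSMUSG00000024516) encodes a catalytic subunit of signal peptidase, the enzyme that cuts the signal peptide from proteins entering the ER. Its FPKM was 219.96, 193, 192 and 282 in HI F1, F2, M1 and M2, and 576, 467, 451 and 486 in LO F1, F2, M1 and M2. Every LO library was well above every HI library. The mean rose from 222 ± 42.1 to 495 ± 56.2 FPKM, 2.23-fold, with a log2 difference of 1.17 (SE 0.159, limma adjusted p = 0.00185). It was called in all 18 alternative analyses, with adjusted p from 0.0016 to 0.0122. Sec11a encodes the alternative catalytic subunit and was at 471 ± 46.0 FPKM in HI and 487 ± 57.4 in LO cells, and was not called (limma adjusted p = 0.888). As a description, the ratio of Sec11c to Sec11a was 0.480 ± 0.136 in HI and 1.02 ± 0.106 in LO libraries, without overlap. The accessory signal peptidase subunits Spcs1 (224 ± 40.3 and 205 ± 27.1 FPKM), Spcs2 (277 ± 27.5 and 289 ± 37.9) and Spcs3 (36.1 ± 6.85 and 32.8 ± 1.84) overlapped between HI and LO and were not called. Spcs2 has a pseudogene model that reached 74.1 FPKM, so reads may be shared between them.

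Txndc5 (ENSMUSG00000038991) encodes a disulfide isomerase with several thioredoxin domains that is abundant in secretory cells. The 4 HI libraries held 31.7, 38.1, 49.8 and 44.1 FPKM in the order F1, F2, M1, M2, and the LO libraries 61.4, 98.5, 67.4 and 70.4. All LO libraries stood above all HI libraries, and LO F2 was the highest. The mean rose from 40.9 ± 7.78 to 74.4 ± 16.5 FPKM, 1.82-fold, with a log2 difference of 0.84 (SE 0.21, limma adjusted p = 0.036). This call was close to the threshold and ended in 11 of 18 alternative analyses. Leaving out a library ended it for HI F1 (adjusted p = 0.0913), HI F2 (0.0936), HI M2 (0.0602), LO F2 (0.105), LO M1 (0.0674) and LO M2 (0.068), while the difference stayed between 0.70 and 0.96 on the log2 scale in all 18.

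**Figure D2:**
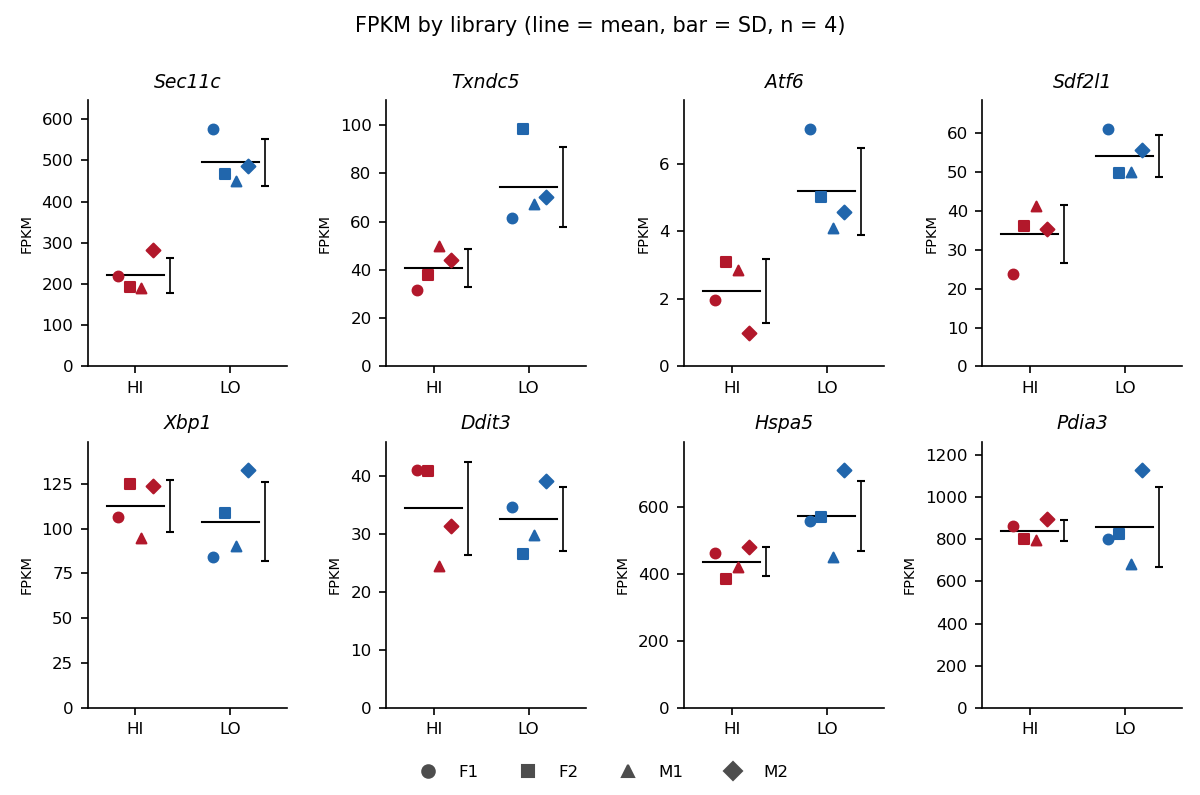
FPKM of 8 genes in each library, HI in red and LO in blue, with symbols for F1, F2, M1 and M2, the mean as a line and the SD as a bar (n = 4). In Sec11c, Txndc5, Atf6 and Sdf2l1 the 4 LO libraries lie above the 4 HI libraries, and in Xbp1, Ddit3, Hspa5 and Pdia3 the groups overlap.

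Among the sensors and transcription factors of the UPR, 0 of 5 tested genes were called. Xbp1, whose spliced form is the transcription factor made on IRE1 activation, was the most abundant. It was at 106, 125, 94.8 and 124 FPKM in HI F1, F2, M1 and M2 and at 84.0, 109, 90.4 and 133 in the LO libraries in the same order. The groups overlapped throughout, with both the lowest and the highest value in LO. Its log2 difference was -0.13, with a 95% interval from -0.53 to 0.28 (SE 0.183, limma adjusted p = 0.762). These values are sums per gene, so spliced and unspliced Xbp1 cannot be told apart.

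Ern1, the IRE1 sensor that splices Xbp1, was listed at 0.679, 1.26, 1.07 and 1.08 FPKM in HI and 0.465, 0.926, 0 and 0.999 in LO. It lay near the filter of 1 FPKM in at least 4 libraries, did not pass it and was not tested. Eif2ak3, the PERK kinase that slows translation under stress, was at 0.986, 2.71, 0.870 and 1.69 in HI and 1.81, 1.2, 1.11 and 3.13 in LO. These overlapped fully (log2 difference 0.14, SE 0.382, limma adjusted p = 0.889).

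Atf4 encodes the factor translated when PERK or related kinases are active. Its values were 77.2, 44.1, 48.1 and 34.9 FPKM in HI and 75.9, 59.8, 69.3 and 41.0 in LO. In both groups F1 was the highest and M2 the lowest (log2 difference 0.29, SE 0.276, limma adjusted p = 0.619). Ddit3, which encodes CHOP, a factor of prolonged stress downstream of ATF4, was at 41.1, 40.9, 24.6 and 31.4 in HI and 34.8, 26.6, 29.9 and 39.2 in LO. The LO libraries lay within the range of the HI libraries (log2 difference -0.06, 95% interval -0.57 to 0.44, limma adjusted p = 0.913).

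Atf6, the sensor that is itself cut into a transcription factor, was low in all libraries, at 1.97, 3.10, 2.84 and 1.0 FPKM in HI and 7.03, 5.02, 4.11 and 4.58 in LO. The lowest LO library stood above the highest HI library. The mean was 2.23 ± 0.948 in HI and 5.18 ± 1.28 in LO, and the log2 difference of 0.97 did not pass after adjustment (SE 0.343, 95% interval 0.20 to 1.74, limma adjusted p = 0.131). Across the alternatives its adjusted p ranged from 0.0769 to 0.268.

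**Figure D3:**
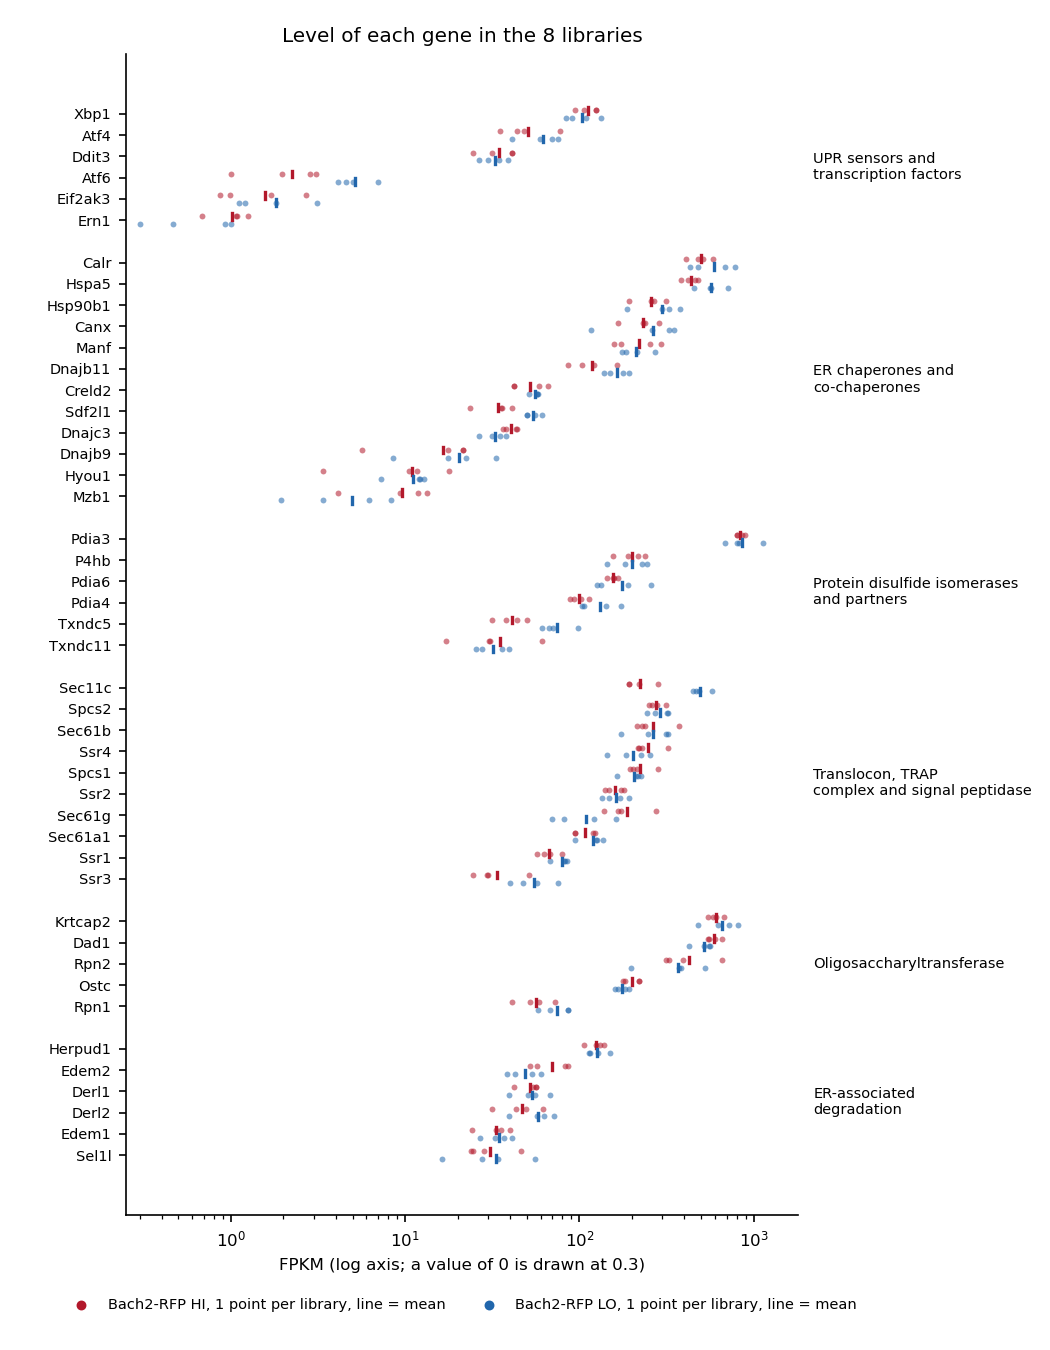
FPKM on a log axis for each of the 45 genes, grouped by role, with 1 point per library and a line at the mean of HI (red) and LO (blue); no line is drawn for Ern1 in LO, where a library is at 0. Levels run from about 1 FPKM for Ern1 to 851 for Pdia3 as means over the 8 libraries, and red and blue points overlap in most rows.

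None of the 12 chaperones and co-chaperones was called. Hspa5 encodes BiP, the ER Hsp70 that holds the sensors inactive and is a standard readout of the UPR. Its FPKM was 463, 385, 421 and 480 in HI and 559, 572, 452 and 711 in LO. LO F1, F2 and M2 were above all HI libraries and LO M1 lay within them (log2 difference 0.38, SE 0.157, 95% interval 0.03 to 0.73, limma adjusted p = 0.201). Sdf2l1, a partner of BiP, was at 23.7, 36.2, 41.3 and 35.4 in HI and 61.1, 49.8, 49.99 and 55.6 in LO. Its groups did not overlap, and the log2 difference of 0.67 missed the threshold (SE 0.205, limma adjusted p = 0.0806). Dnajb11, an Hsp40 that delivers clients to BiP, had means of 119 ± 33.8 and 165 ± 24.8 FPKM (log2 difference 0.49, limma adjusted p = 0.216).

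Calr and Canx, the lectin chaperones that retain glycoproteins for folding, were at 497 ± 72.5 and 231 ± 49.8 FPKM in HI and 594 ± 167 and 265 ± 105 in LO. Calr has a pseudogene model that reached 5.14 FPKM. Hsp90b1, the ER Hsp90, was at 259 ± 50.3 and 298 ± 80.1. Manf, a secreted factor retained in the ER by BiP, was at 219.8 ± 64.4 and 213 ± 43.3. Creld2, a UPR target with isomerase activity, was at 52.3 ± 12.2 and 55.9 ± 3.02, and Dnajc3, an inhibitor of PERK and BiP co-chaperone, at 40.5 ± 3.79 and 32.9 ± 4.97. Dnajb9, a co-chaperone of BiP, was at 16.5 ± 7.49 and 20.4 ± 10.3, and Hyou1, an exchange factor of BiP, at 10.9 ± 5.98 and 11.1 ± 2.58. On the log2 scale Dnajb9, Mzb1 and Hyou1 had the largest spread between libraries of the same group among the 45 genes.

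Mzb1, a chaperone of antibody assembly in B lineage cells, had the lowest mean of the chaperones. It was at 11.9, 9.32, 13.3 and 4.14 FPKM in HI and 8.29, 6.21, 3.39 and 1.93 in LO. M2 was the lowest library in both groups, and the groups overlapped (log2 difference -0.88, SE 0.458, limma adjusted p = 0.315).

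The 7 genes with an ERSE printed above can be read as 1 set of UPR targets, though they were grouped after their values were known. None of the 7 was called. Their differences ran from -0.30 (Dnajc3) to 0.38 (Hspa5) with a median of 0.12, and 6 of 7 were above 0. The 28 other tested genes with a window had a median of 0.05, 19 of 28 above 0 and 1 call, Txndc5. The ERSE-II genes Dnajb11, Krtcap2 and Herpud1 are among these 28.

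In the disulfide isomerases Txndc5 alone was called, 1 of 6. Pdia3 (ERp57), which works with calreticulin and calnexin, was the most abundant gene of the whole group, at 864, 804, 799 and 899 FPKM in HI and 804, 825, 682 and 1129 in LO. The LO libraries lay on both sides of the HI libraries, and LO M2 was the highest. Pdia4 was at 99.3 ± 11.1 in HI and 132 ± 33.2 in LO (log2 difference 0.38, SE 0.194, limma adjusted p = 0.309). Pdia6, which also restrains IRE1, was at 157 ± 9.09 and 176 ± 60.4, and P4hb, the founding member of the family, at 201 ± 35.7 and 199.9 ± 45.4. Txndc11, a partner of thyroid oxidases and of EDEM proteins, was at 34.9 ± 18.8 and 32.2 ± 6.76.

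Of the translocon, TRAP and signal peptidase genes, Sec11c was called and 9 of 10 were not. Sec61a1, the channel itself, was at 108 ± 15.5 FPKM in HI and 120 ± 18.2 in LO, and Sec61b at 264 ± 73.8 and 266 ± 69.8. Sec61g, the smallest channel subunit, was at 167, 138, 276 and 175 in HI and 122, 81.6, 162 and 69.3 in LO. LO F1, F2 and M2 were below all HI libraries, while LO M1 lay above HI F2. Its log2 difference of -0.82 (SE 0.296, limma adjusted p = 0.139) was called in 1 alternative, with the library label as a replicate block (adjusted p = 0.0403).

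None of the 4 TRAP subunits, which assist the entry of some signal peptides, was called. Ssr3 was at 29.9, 24.5, 51.6 and 29.5 FPKM in HI and 40.2, 75.0, 47.3 and 57.2 in LO, with HI M1 alone among the LO libraries (log2 difference 0.70, SE 0.274, limma adjusted p = 0.176). Ssr4 was at 248 ± 51.7 in HI and 203 ± 48.2 in LO (log2 difference -0.30, limma adjusted p = 0.466). Ssr1 was at 66.8 ± 9.5 and 79.1 ± 7.72, and Ssr2 at 161 ± 19.6 and 162 ± 26.3.

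None of the 5 oligosaccharyltransferase genes was called, and all 5 intervals lay within -1 and 1. Krtcap2, a subunit of the complex that works at the translocon, was at 606 ± 55.6 FPKM in HI and 659 ± 142 in LO. Dad1, named for the death of cells that lack it, was at 592 ± 51.7 and 517 ± 64.0, and Ostc at 200.4 ± 22.8 and 176 ± 15.6. Of the ribophorins, Rpn1 was at 56.3 ± 13.2 and 74.2 ± 13.9 (log2 difference 0.40, SE 0.217, limma adjusted p = 0.331) and Rpn2 at 424 ± 162 and 369.9 ± 133.

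ER-associated degradation likewise had 0 of 6 called. Herpud1, a UPR-induced organizer of the retrotranslocation complex, was at 125 ± 13.9 FPKM in HI and 127 ± 16.3 in LO, among the least variable of all 45 genes. Edem2, which trims mannose from misfolded glycoproteins, was at 83.2, 57.1, 51.9 and 86.6 in HI and 53.6, 43.0, 38.3 and 60.0 in LO. HI M1 and F2 lay among the LO libraries (log2 difference -0.50, SE 0.229, limma adjusted p = 0.256). Edem1 was at 33.2 ± 6.60 and 34.5 ± 6.03, Sel1l, the scaffold of the ligase complex, at 30.8 ± 10.4 and 33.4 ± 16.4, and the channel components Derl1 and Derl2 at 52.4 ± 6.97 and 46.7 ± 12.5 in HI and 53.4 ± 11.7 and 57.7 ± 13.5 in LO.

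The levels varied with the library as well as with the group. HI M1 was the highest HI library in 21 of 44 genes and in 9 of 10 translocon, TRAP and signal peptidase genes. LO M2 was the highest LO library in 18 of 44 genes and in 5 of 6 disulfide isomerases, and the lowest in 5 of 10 translocon, TRAP and signal peptidase genes. The median deviation from a gene's mean (log2 scale) for HI M1 was 0.10 over the 44 genes and 0.13 over all tested genes, and for LO M2 0.26 and 0.02, so HI M1 was also high over all genes. These are the shallowest and the deepest library, and the part of depth in the pattern was not tested. Without both libraries, an analysis listed among the alternatives, Sec11c was called (log2 difference 1.11, adjusted p = 0.0122) and Txndc5 was not (0.96, adjusted p = 0.0702). Summed over the 45 genes, FPKM ran from 7053 to 8221 in HI and from 7377 to 8688 in LO libraries, so the sums overlapped.

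**Figure D4:**
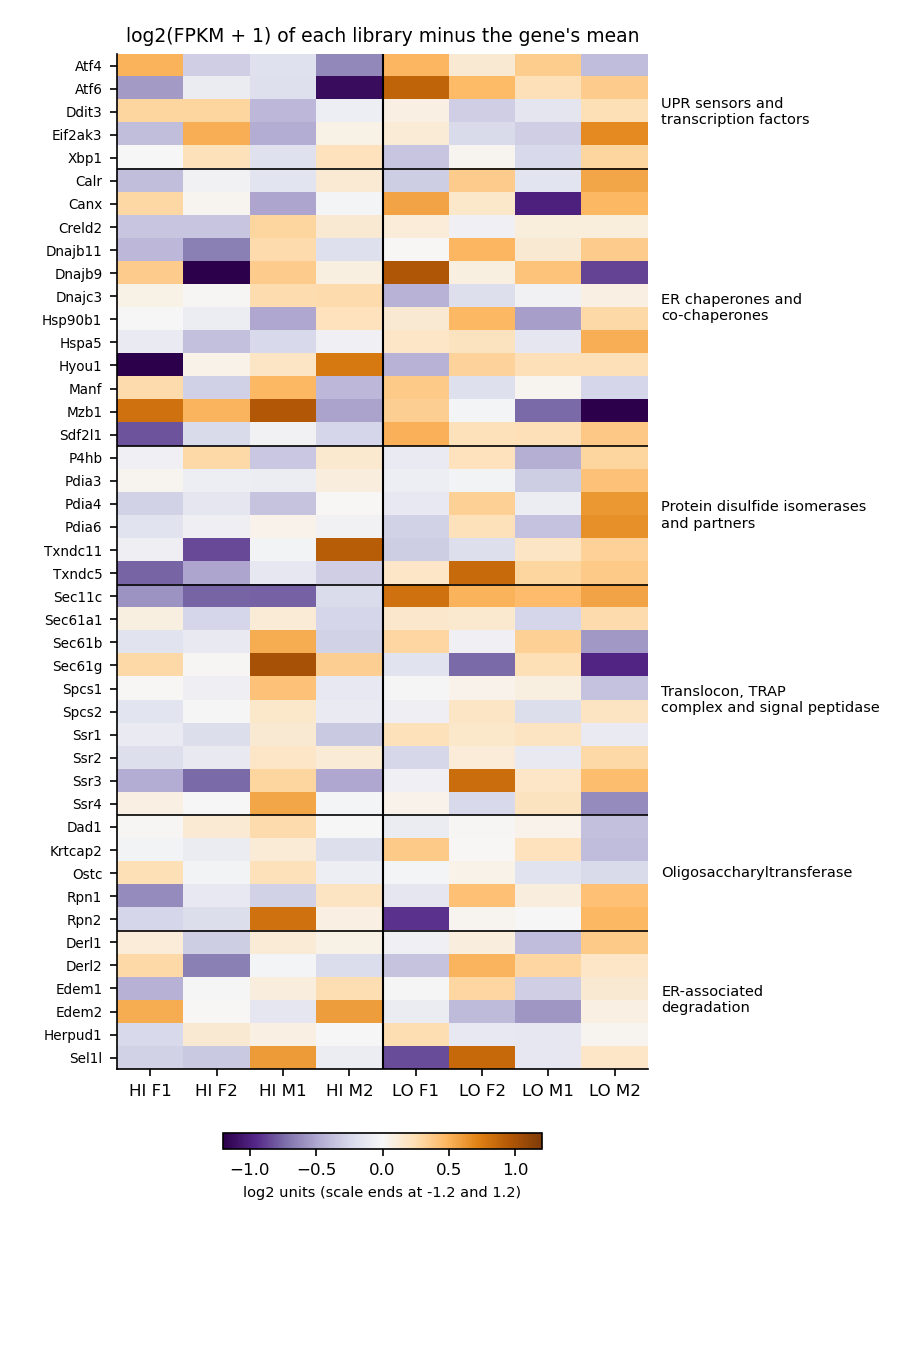
Each row is 1 of the 44 genes tested and each column a library; colour gives log2(FPKM + 1) minus the gene's mean over the 8 libraries, orange above and purple below, on a scale that ends at -1.2 and 1.2. HI M1 is orange in most translocon rows and LO M2 in most disulfide isomerase rows, and the Sec11c, Txndc5, Atf6 and Sdf2l1 rows change colour at the line between HI and LO.

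The wider secretory pathway was read from 7 further lists with 142 genes, of which 131 were tested. A single gene was called, Sec24d, higher in LO, and none lower. That is 0.763% of the 131, where 4.65% of all tested genes were called higher in LO and 3.64% lower. The LO libraries lay above the HI libraries without overlap in 8 of the 131 and below in 0. Over all tested genes these shares were 7.9% and 7.18%. Sec24d encodes a cargo-binding subunit of the COPII coat, which buds vesicles from the ER. It was at 5.88, 5.13, 5.64 and 2.79 FPKM in HI and 15.6, 16.4, 9.14 and 14.9 in LO, without overlap, a rise of 2.88-fold (log2 difference 1.36, SE 0.31, limma adjusted p = 0.0243). The call ended in 7 of 18 alternatives, among them leaving out HI F2 (adjusted p = 0.0551), HI M2 (0.0553), LO F1 (0.0683), LO F2 (0.0788) or LO M2 (0.066). Its paralogs Sec24a, Sec24b and Sec24c, named after their values were seen, were at 12.3 ± 2.63, 24.4 ± 9.58 and 39.4 ± 4.18 FPKM in HI and 9.12 ± 3.85, 31.8 ± 8.01 and 34.1 ± 4.45 in LO, and were not called. Including these paralogs, the 24 tested genes of ER to Golgi transport other than Sec24d were not called. Among them were Kdelr2, which returns ER proteins from the Golgi (37.1 ± 4.43 and 50.4 ± 12.5), Tmed9 (115 ± 47.6 and 77.3 ± 6.27) and Copb1 (57.5 ± 3.55 and 67.7 ± 8.49).

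The targets of ATF4 and CHOP, 15 tested, held no called gene. Sesn2, a stress-induced regulator of mTORC1, was at 3.72 ± 1.66 FPKM in HI and 7.63 ± 1.19 in LO without overlap (log2 difference 0.92, limma adjusted p = 0.121). Asns, asparagine synthetase, was at 3.08 ± 2.39 and 7.60 ± 3.55, Cebpg at 9.47 ± 3.42 and 15.5 ± 4.09, and Shmt2 at 57.9 ± 9.71 and 42.9 ± 14.9. Of 12 other UPR regulators none was called. Mbtps2, the site-2 protease that cuts ATF6, was at 13.1 ± 5.98 and 5.10 ± 1.44 (log2 difference -1.13, limma adjusted p = 0.101). Ppp1r15b, which restores translation by dephosphorylating eIF2, was at 7.94 ± 2.46 and 13.2 ± 4.12, Rtcb, the ligase that joins spliced Xbp1, at 140.3 ± 16.4 and 109.8 ± 21.5, and Traf2, an adaptor of IRE1, at 61.6 ± 9.87 and 73.7 ± 11.6.

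The 20 other folding factors had 0 called. Hspa13, an Hsp70 of the ER, was at 2.86 ± 0.845 FPKM in HI and 6.83 ± 1.87 in LO without overlap (log2 difference 1.01, SE 0.314, limma adjusted p = 0.0864). Prdx4, the ER peroxiredoxin, was at 40.4 ± 10.9 and 73.2 ± 19.7 (adjusted p = 0.0958), Ppib, cyclophilin B, at 488 ± 64.6 and 619 ± 37.5 (adjusted p = 0.154), and Sil1, the exchange factor of BiP, at 26.8 ± 7.76 and 16.2 ± 3.58 (adjusted p = 0.178), all from limma. Hspa13, Prdx4, Ppib, Srpra, Lman1 and Mbtps2 were each called in 1 or 2 of the 18 alternatives.

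Glycan synthesis and processing had 0 of 19 called. Lman1, the cargo lectin ERGIC-53, was at 24.0 ± 8.46 FPKM in HI and 42.1 ± 6.13 in LO without overlap (log2 difference 0.83, SE 0.261, limma adjusted p = 0.0888), while its partner Mcfd2 was at 49.6 ± 29.8 and 25.8 ± 9.6 (log2 difference -0.82, limma adjusted p = 0.247). Alg5 was at 79.2 ± 11.2 and 99.9 ± 4.64, and Mogs, the first glucosidase, at 7.28 ± 2.12 and 3.98 ± 1.66. Signal recognition and other translocation genes had 0 of 21 called. Srpra, the receptor of the signal recognition particle, was at 67.9, 80.4, 66.7 and 34.5 in HI and 116, 176, 155 and 66.9 in LO, where LO M2 lay within the HI libraries (log2 difference 1.01, limma adjusted p = 0.116). Get4, Serp1 and Srp9 were at 86.2 ± 18.1, 136 ± 22.3 and 60.4 ± 6.44 in HI and at 62.4 ± 13.3, 107 ± 8.31 and 45.3 ± 11.7 in LO. Other ER-associated degradation genes had 0 of 19 called, with Edem3 at 1.19 ± 0.515 and 2.73 ± 0.803, Erlec1 at 9.74 ± 9.01 and 18.3 ± 8.98, Herpud2 at 20.4 ± 7.54 and 28.9 ± 4.53, and Vcp, the ATPase that extracts clients, at 108 ± 10.9 and 139 ± 29.9.

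Many of these genes are far more active in plasma cells than in T cells, and markers of other cells moved with the groups. Of 11 plasma cell markers in the table, 8 were tested and 4 were called, all higher in LO: Jchain, Prdm1, Ighm and Igkc. Prdm1 is also a regulator of effector Treg cells. Pou2af1, Tnfrsf13b, Derl3 and Sdc1 were tested and not called. Pou2af1 went the other way without overlap, at 3.699 to 8.58 FPKM in HI and 1.23 to 3.06 in LO libraries. Its log2 difference was -1.05 (limma adjusted p = 0.107). Tnfrsf13b, Derl3 and Sdc1 overlapped between HI and LO. Jchain was at 3.0, 11.0, 12.2 and 17.1 FPKM in HI and 160.3, 88.1, 60.1 and 47.6 in LO. The summed level of the list ran from 1662 to 2062 in HI and 3380 to 7061 in LO, nearly all of it Igkc and Ighm. Of the defining markers, Ighg1 was listed at 0 in every library, Tnfrsf17 at 0 in all but LO M2 (1.11), Sdc1 at 0, 2.14, 2.67 and 0 in HI and 0.493, 7.82, 5.46 and 1.55 in LO, and Ighg2b at 0, 0, 0 and 1.8 in HI and 45.1, 0, 0 and 1.119 in LO. The part of such cells in the higher Sec11c and Txndc5 of LO libraries was not tested. Among the LO libraries, F1 had the highest Jchain, Igkc (5608 FPKM, against 2188 to 2686 in the others), Ighg2b, Tnfrsf13b and Sec11c. The same library had the lowest Txndc5, Prdm1 (16.2 FPKM, against 18.9 to 30.1 in the others) and Sdc1. Its Ighm, at 1119 FPKM, was below LO F2 (1587) and LO M2 (1956) and above LO M1 (1042). These markers were compared by library after their values were seen.

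In the other direction, 3 of 6 tested B cell markers were lower in LO (Ms4a1, Cd79a and Fcer2a). Cd79b, Ebf1 and Blk were not called. List sums were 139.9 to 256 FPKM in HI and 75.4 to 100.1 in LO, where Cd79b alone was at 59.9 to 92.4. Of 9 plasmacytoid dendritic cell markers 5 were lower in LO (Siglech, Ccr9, Ly6d, Spib and Klk1), with sums of 479 to 827 and 288 to 388. Bst2, Tcf4, Irf8 and Runx2 were not called, and the mean of Runx2 was higher in LO. Most of the LO sums came from Bst2 and Irf8. Ms4a1 was at or below 1.95 in the LO libraries, and Siglech at 0 in LO F1 and M1. Mzb1 is expressed in both of these cell types. As a chaperone of antibody assembly it is also expressed in plasma cells, whose markers Jchain and Igkc were higher in LO. The part of any of these cell types in the level of Mzb1 was not tested. Myeloid markers had 1 of 8 tested lower in LO (Csf1r), with sums of 142 to 328 and 101 to 266, NK and CD8 markers 1 of 4 (Eomes), with sums of 50.2 to 65.8 and 32.4 to 38.1, and erythroid markers 0 of 3. Of 7 T and Treg markers Ikzf2 and Ctla4 were higher and Il2ra lower, with sums of 4557 to 5537 and 5010 to 7004. In sorted populations read as bulk RNA, fewer cells of a type and less RNA per cell cannot be told apart.

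**Figure D5:**
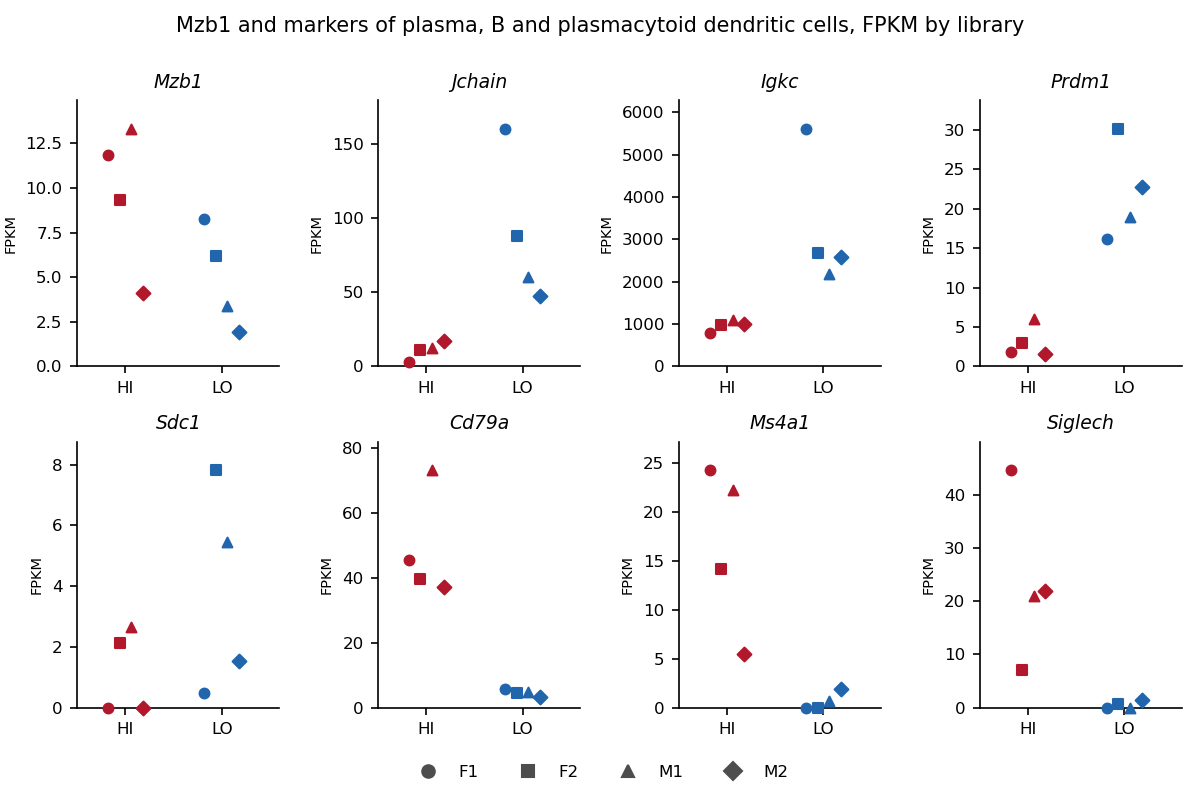
FPKM of Mzb1 and of markers of plasma cells (Jchain, Igkc, Prdm1, Sdc1), B cells (Cd79a, Ms4a1) and plasmacytoid dendritic cells (Siglech) in each library, HI in red and LO in blue, with symbols for F1, F2, M1 and M2. Jchain, Igkc and Prdm1 lie higher in all 4 LO libraries, Cd79a, Ms4a1 and Siglech lie lower, and Mzb1 overlaps.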

How the data were processed

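Spleen Treg cells were enriched for CD4, sorted and made into SmartSeq2 libraries, per the labels' protocols. The design text of the series describes another, single-cell experiment and was not used. The authors deposited 1 table of FPKM values with a column per library, made with Cuffnorm per the name of the table. The submitters' processing notes name NCBIM37 and mm9 as builds, and HISAT2, cutadapt and FastQC as tools. For scaling, annotation and strand of counting, the sources used here give nothing, so overlapping genes cannot be told apart. A value of 0 can be a failed estimate.

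A GENCODE annotation of GRCm38 gave symbols for the Ensembl IDs and nothing else, and RefSeq (GRCm38.p6) the promoter windows. IDs were found for 243 of 245 list entries, and 1 marker gene is not reported here. The 11260 models that reached an FPKM of 1 in 4 or more libraries entered limma 3.58.1 (R 4.3.3) as log2(FPKM + 1) values (eBayes with trend, two-sided, 8 libraries, no covariates, Benjamini-Hochberg over all). On this scale a difference understates the change of low genes. The code was tested on simulated data. Read depth is unknown, and relative depth was read from the steps between low values.

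The genes and lists were chosen with earlier results of these data known. The 6 UPR regulators, Hspa5 and every called gene are given in full, the others by level, and up to 4 genes of each further list by smallest p. Genes shown by library beyond these were chosen after their values were seen. Protein features were planned and are not reported here. The 18 alternatives changed the pseudocount, the filter, the scaling, the eBayes settings, added sex or the library label as covariates, or left out libraries.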

Additional observations from a re-analysis of the deposited data

Results flagged for a closer look

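In 5 of 90 group values of 4 libraries each, 1 library lay far from the other 3 by Dixon's criterion, and chance alone picks out about 1 in 20. Sec61b and Ssr4 were both high in HI M1, at 373 FPKM against 238 or less and at 325 against 230 or less in the other HI libraries. Derl1 was low in HI F2, at 42.0 against 54.5 or more. Hyou1 was low in LO F1, at 7.24 against 12.1 or more, and Creld2 in LO F2, at 51.4 against 57.2 or more. For Creld2 the ratio of LO to HI was 1.30 in the female libraries and 0.917 in the male libraries, with both female LO libraries above both female HI libraries and the reverse in the males. This difference between the sexes was not tested.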

How the results depend on the processing

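Sec11c was called in the main analysis and in all 18 alternatives. Txndc5 was called as well in 7 of them, so 1 gene of the group was called higher without a filter, without the trend, with sex as a covariate, with the replicate block and without HI M1 and LO M2, and 1 to 2 when single libraries were left out. None was called lower except 1, Sec61g, with the replicate block. Over all genes, 524 were called higher and 410 lower; leaving out single libraries gave 286 to 453 higher and 285 to 382 lower, and leaving out HI M1 and LO M2 gave 306 and 239. Whether a label marks a shared animal is not stated. Deviations of same-labelled HI and LO libraries correlated at 0.05, 0.01, 0.07 and 0.11 for F1, F2, M1 and M2, and the best partner was the same label for F1, M1 and M2 and F1 for F2; the libraries were not treated as paired. With the replicate block 412 genes were called higher and 359 lower. Of the 44 genes, 24 kept the sign of the difference in every alternative and 20 turned in at least 1. Of those whose difference is printed, Txndc11, at 0.004 in the main analysis, kept its sign in 12 of 18 alternatives. Ddit3, also printed, turned without HI F1, HI F2 or LO F2. Its difference ranged from -0.21 to 0.03 over the libraries left out (0.0282, 0.0264 and 0.0255 where it turned). Eif2ak3, from -0.07 to 0.33 over the libraries left out, turned with quantile normalization (-0.0172), without LO M2 (-0.0680) and without HI M1 and LO M2 (-0.20). The cause was not tested. The median difference of the group stayed between 0.02 and 0.13. No value can be given an interval from counting, since read depth is unknown.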
